A study of Homo sapiens with 12 samples.

Results

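The genes described here are ATF4 and 8 genes commonly placed under its control in the integrated stress response, followed in ribosome footprints (RPF, stretches of mRNA left after nuclease digestion because a ribosome covered them), in mRNA and in the ratio of footprints to mRNA. They were named by transcript identifier: 10 Ensembl identifiers for 9 genes, of which 8 identifiers, for 8 genes, occurred among the 18338 transcripts of the count tables. ATF4 was present as ENST00000674920 and not as ENST00000337304. The DDIT3 (CHOP) identifier ENST00000346473 was in no table, so DDIT3 is not described. The 8 transcripts present had at least 1 count in each of the 12 libraries, and all 8 passed the filter on low counts in both assays.

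The cells were HEK293T, a transformed human embryonic kidney line labelled wild type, sampled at 0, 60 and 360 min of GSK-A1, an inhibitor of the lipid kinase PI4KA. Each time had 2 RPF and 2 polyadenylated mRNA libraries. The treatment label reads GSK-A1 in every library, the 0 min ones included, and gives no dose, so the 0 min libraries serve as the reference through their time alone. The line was not checked against marker genes, because 0 of the 18338 identifiers were paired with a symbol in the name tables used here. For the same reason other genes of the pathway, such as the eIF2 kinases and the amino acid transporters, were not analysed here.

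In the integrated stress response, kinases that sense amino acid shortage, unfolded protein, heme loss or double-stranded RNA phosphorylate the initiation factor eIF2. General initiation then drops, while a few mRNAs with upstream open reading frames, ATF4 foremost among them, are translated better. ATF4 protein switches on genes for amino acid synthesis and transport, for feedback on the pathway and, when stress persists, for cell death. A footprint level for ATF4 that moves apart from its mRNA level is therefore the usual sign looked for in ribosome profiling, and the mRNA levels of its targets are the second.

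ATF4 and its C/EBP partners bind a composite site, the C/EBP-ATF response element. The sequence TGATGNAA, searched on both strands, was taken as its core. All 9 genes had RefSeq promoter windows in build GRCh38.p14, of 300 bases each (250 before the start site and 50 after it). The 9 genes had 14 windows between them. A match was found for 2 of the 9 genes, ASNS and CHAC1, beside 4.46% of the 27305 symbols with a window and 3.62% of all 35116 windows. Both matches are shown because such a site is how ATF4 is known to reach its targets; a match describes letters and is not evidence of binding. Each is printed 5′ to 3′ along its gene with the match in capitals. The ASNS stretch covers chr7:97872449-97872496 on the minus strand, flanks included, and its match begins 68 bases before the start site of that window. The CHAC1 stretch covers chr15:40953242-40953289 on the plus strand, flanks included. Its match is the core read on the opposite strand and begins 209 bases before the start site.
ASNS: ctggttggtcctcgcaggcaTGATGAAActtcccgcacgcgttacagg
CHAC1: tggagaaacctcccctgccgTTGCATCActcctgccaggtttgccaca

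RPF libraries held 546547 to 1165740 counts and mRNA libraries 429026 to 1002695. Levels are given as CPM, counts scaled to library size, and cannot be compared between genes because transcript length was not used. In both assays 360 min replicate 2 was the library least like the others (Pearson's r of log2 CPM across transcripts 0.834 to 0.864 in RPF and 0.744 to 0.832 in mRNA). For 0 of the 12 libraries was the nearest library its partner of the same time. The labels do not say that replicates were separate cultures, so p-values measure the spread between libraries, which may be technical. Extracts of whole cultures do not tell a change in every cell from a change in some of them.

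By group means, 5 of the 8 transcripts in RPF and 6 of 8 in mRNA stood highest at 60 min and lowest at 360 min, where 20.9% and 20.3% of all transcripts tested did, but no difference passed the test. Within libraries numbered 1 and 2 this order held for 6 and 3 of 8 in RPF, where 19.4% and 21.5% of all transcripts tested had it. In mRNA it held for 2 and 7 of 8, beside 17.6% and 18.3% of all. PSAT1 and TRIB3 had it in both numbers of both assays, a share not counted over all transcripts. For TRIB3 the 0 and 360 min libraries numbered 1 were nearly equal. Their ratio of 360 to 0 min was 0.986 in RPF (95% counting interval 0.451 to 2.08) and 0.949 in mRNA (0.403 to 2.07). PSAT1 had the clearest profile: its RPF level was 1.79-fold higher at 60 min than at 0 min and then 0.434 of the 60 min level at 360 min, with no overlap between the libraries of any of the times. TRIB3 followed in mRNA, 2.17-fold higher at 60 min and 0.301 of that at 360 min. DDIT4 went against the others in RPF, but its groups overlapped in each comparison. Its log2 change in RPF from 60 to 360 min was -0.07 without RPF 360 min replicate 2. The 0 and 60 min libraries of ATF4 itself overlapped in both assays. None of the 8 had an adjusted p-value under 0.05 in RPF, mRNA or their ratio in edgeR's quasi-likelihood test, and 0% of all transcripts tested did in any of these 9 comparisons.

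**Figure D1:**
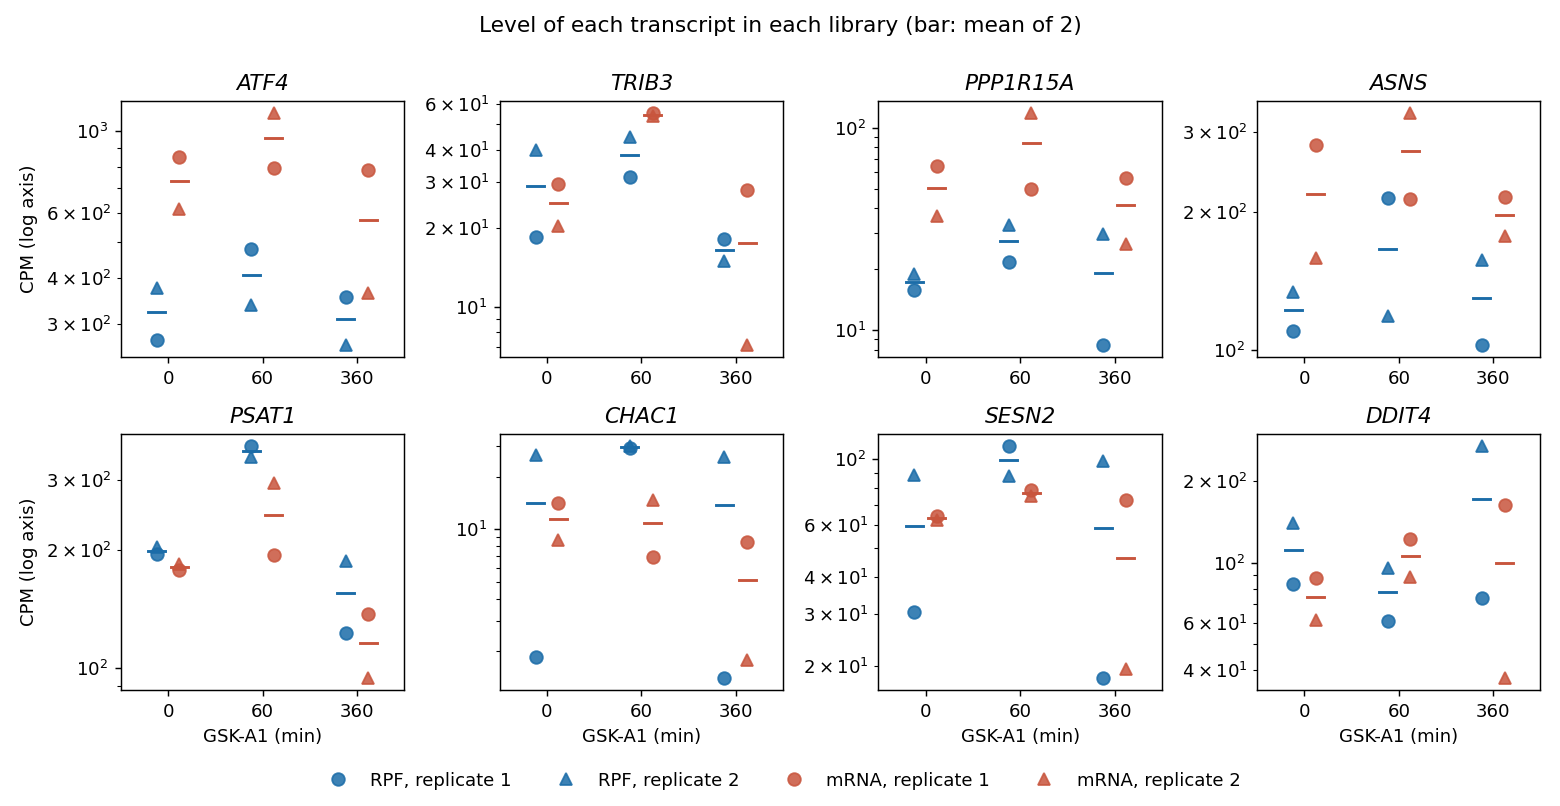
CPM of the 8 transcripts (log axis) at 0, 60 and 360 min, with RPF in blue and mRNA in red, circles for replicate 1, triangles for replicate 2 and a bar at the mean of the 2 libraries. PSAT1 RPF shows a close pair of points at 60 min (368 and 345 CPM), and CHAC1 and SESN2 RPF show replicate 1 far below replicate 2 at 0 and 360 min.

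ATF4 (ENST00000674920; gene at chr22:39520559-39522686) encodes the transcription factor at the centre of the response. Its RPF level was 271 and 374 CPM at 0 min, 478 and 336 CPM at 60 min, and 355 and 262 CPM at 360 min, for replicates 1 and 2. Each library held 140 to 442 ATF4 footprints. The 3 times overlapped, and only 60 min replicate 1 lay above both 0 min libraries. The log2 change in RPF was 0.34 (SE 0.438, 95% interval -0.59 to 1.26) at 60 min against 0 min and -0.06 (SE 0.440) at 360 min against 0 min, both smaller than their SE.

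The ATF4 mRNA level was 851 and 616 CPM at 0 min, 795 and 1124 CPM at 60 min, and 783 and 364 CPM at 360 min. One library, 60 min replicate 2, was the highest, and the 0 and 60 min groups overlapped. Both 360 min libraries lay below both 60 min libraries, the first of them narrowly. The log2 change in mRNA was 0.39 (SE 0.522) at 60 min against 0 min and -0.74 (SE 0.525, 95% interval -1.93 to 0.44) at 360 min against 60 min, where the edgeR adjusted p-value was 0.676. Without mRNA 360 min replicate 2 the latter was -0.29.

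ATF4 had a low ratio of footprint level to mRNA level at every time. The ratio of mean RPF CPM to mean mRNA CPM was 0.440 at 0 min, 0.425 at 60 min and 0.538 at 360 min. The median over 8632 transcripts was 1.10 at 0 min, 1.05 at 60 min and 1.15 at 360 min, and only 11.8%, 9.66% and 14.8% of them had a lower ratio than ATF4. Between libraries of the same number the ATF4 ratio was 0.319 and 0.608 at 0 min, 0.602 and 0.299 at 60 min, and 0.454 and 0.719 at 360 min. The replicates of a time thus differed by more than the times did. The change in translational efficiency (TE, the change of RPF less the change of mRNA on the log2 scale) was -0.03 at 60 min against 0 min, with a 95% interval of -1.52 to 1.45. At 360 min against 0 min it was 0.23, with an interval of -1.26 to 1.71. The counted region is not given in the sources used here, so footprints on the upstream reading frames of ATF4 may or may not be part of its RPF counts. Transcript length cancels in the ratio only if counted reads of both assays fall on the same part of the transcript. Ranks of the ratio between genes, here and below, are therefore uncertain.

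PPP1R15A (GADD34; ENST00000200453; gene at chr19:48872421-48876058) encodes the phosphatase subunit that restores eIF2 and ends the response, and its mRNA also carries upstream reading frames. Its ratio of mean RPF to mean mRNA was the lowest of the 8 at each time: 0.343 at 0 min, 0.326 at 60 min and 0.463 at 360 min, with 7.30%, 5.25% and 10.3% of transcripts lower. Between libraries numbered 1 and 2 it was 0.244 and 0.517 at 0 min, 0.436 and 0.280 at 60 min, and 0.150 and 1.12 at 360 min. The rank holds for ratios of means: CHAC1 was lower at 0 min in replicate 1, and ATF4 and ASNS were lower at 360 min in replicate 2. The RPF level was 15.7 and 18.8 CPM at 0 min, 21.6 and 33.2 CPM at 60 min, and 8.39 and 29.9 CPM at 360 min. Both 60 min libraries thus lay above both 0 min libraries, on only 17 to 23 counts each, while the 360 min libraries were the lowest and the second highest of the 6. From 0 to 60 min the log2 change in RPF was 0.65 (SE 0.563, 95% interval -0.53 to 1.84).

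In mRNA PPP1R15A was carried by a single library. Its level was 64.2 and 36.4 CPM at 0 min, 49.7 and 118 CPM at 60 min, and 56.1 and 26.6 CPM at 360 min. Replicate 2 at 60 min, with 128 counts, was 2.38 times its partner, and the groups overlapped in every comparison. The log2 change was 0.74 (SE 0.543) at 60 min against 0 min and -1.06 (SE 0.574) at 360 min against 60 min, and 0.00 and -0.30 without mRNA 60 min replicate 2.

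TRIB3 (ENST00000217233; gene at chr20:380760-397559) encodes a pseudokinase induced by ATF4 and DDIT3 that in turn restrains ATF4. The mRNA level was 29.6 and 20.4 CPM at 0 min, 55.4 and 53.7 CPM at 60 min, and 28.1 and 7.11 CPM at 360 min. The 60 min libraries agreed closely and lay above the other 4, whereas the 360 min libraries were far apart on 10 and 4 counts. The log2 change in mRNA was 1.12 (SE 0.533, 95% interval -0.09 to 2.32) at 60 min against 0 min. At 360 min against 60 min it was -1.73 (SE 0.597, interval -3.08 to -0.39), with an edgeR adjusted p-value of 0.401 (0.0171 unadjusted). Without mRNA 360 min replicate 2 this was -0.95 and without replicate 1 of that time -2.92.

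The TRIB3 RPF level was 18.4 and 39.9 CPM at 0 min, 31.4 and 44.7 CPM at 60 min, and 18.2 and 15.0 CPM at 360 min. Both 360 min libraries were below the other 4 libraries, the upper one by a small margin. The log2 change in RPF was 0.39 (SE 0.472) at 60 min against 0 min and -1.17 (SE 0.524, 95% interval -2.28 to -0.07) at 360 min against 60 min, with an edgeR adjusted p-value of 0.617 (0.0390 unadjusted). RPF and mRNA were thus both lower at 360 min than at 60 min in every library, and the change in TE was 0.51 (SE 0.837), within its error.

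PSAT1 (ENST00000376588; gene at chr9:78297125-78330093) encodes phosphoserine aminotransferase, an enzyme of serine synthesis. Its RPF level was 195 and 203 CPM at 0 min, 368 and 345 CPM at 60 min, and 123 and 187 CPM at 360 min, on 88 to 340 counts per library. The replicates of 0 and 60 min were nearly equal, the 60 min libraries lay above the other 4 and the 360 min libraries below the other 4. The log2 change was 0.84 (SE 0.398, 95% interval 0.00 to 1.68) at 60 min against 0 min, with an edgeR adjusted p-value of 0.999 (0.0491 unadjusted). At 360 min against 60 min it was -1.20 (SE 0.406, interval -2.06 to -0.35), with an edgeR adjusted p-value of 0.499 (0.00860 unadjusted). Leaving out any one library of these times gave -1.54 to -0.97 for the second value.

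PSAT1 mRNA had the same order of times with a smaller step at 60 min. It was 177 and 184 CPM at 0 min, 194 and 296 CPM at 60 min, and 137 and 94.2 CPM at 360 min. Here too the 3 times did not overlap, though 60 min replicate 1 was close to the 0 min libraries. The log2 change was 0.44 (SE 0.414) at 60 min against 0 min and -1.09 (SE 0.426, 95% interval -2.05 to -0.13) at 360 min against 60 min, with an edgeR adjusted p-value of 0.440 (0.0304 unadjusted). The ratio of RPF to mRNA was 1.10 at 0 min, 1.45 at 60 min and 1.34 at 360 min, and the change in TE at 60 min against 0 min was 0.42 (SE 0.538).

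ASNS (ENST00000394308; gene at chr7:97851677-97928441) encodes asparagine synthetase and bears the promoter match shown above. Its RPF level was 109.7 and 134 CPM at 0 min, 214 and 118 CPM at 60 min, and 102 and 157 CPM at 360 min. Its mRNA level was 280.1 and 159 CPM at 0 min, 214 and 330.2 CPM at 60 min, and 216 and 178 CPM at 360 min. All times overlapped in both assays, and the 60 min libraries that stood out were replicate 1 in RPF and replicate 2 in mRNA. From 0 to 60 min ASNS RPF had a log2 change of 0.45 (SE 0.402), and -0.04 without RPF 60 min replicate 1. In mRNA it was 0.31 (SE 0.454). The ASNS ratio of mean RPF to mean mRNA was 0.555, 0.611 and 0.658 at 0, 60 and 360 min, with 18.3%, 21.0% and 21.7% of transcripts lower. Between libraries numbered 1 and 2 it was 0.392 and 0.844 at 0 min, 1.00 and 0.358 at 60 min, and 0.472 and 0.884 at 360 min, so replicate 1 at 60 min alone was near the median of all transcripts.

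CHAC1 (ENST00000617768; gene at chr15:40953471-40956512) encodes an enzyme that degrades glutathione and is widely used as a readout of ATF4. It was the least abundant of the 8 by counts, with 1 to 27 RPF counts and 1 to 16 mRNA counts per library. Its RPF counts were 2, 27 and 1 at 0, 60 and 360 min in replicate 1 and 24, 21 and 14 in replicate 2, or 1.84, 29.2 and 1.40 CPM against 26.6, 30.3 and 26.2 CPM. Replicate 1 was thus near zero at both ends of the time course and equal to replicate 2 at 60 min. Between libraries numbered 1 the RPF ratio of 60 min to 0 min was 15.8, with an exact 95% interval of 3.98 to 137 for counting error, and between libraries numbered 2 it was 1.14 (0.604 to 2.14). The fitted log2 change over all libraries was 1.11 (SE 0.839, 95% interval -0.66 to 2.88), and it was 0.17 without RPF 0 min replicate 1 and 3.92 without RPF 0 min replicate 2.

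CHAC1 mRNA did not have this profile. It was 14.1 and 8.74 CPM at 0 min, 6.93 and 14.8 CPM at 60 min, and 8.42 and 1.78 CPM at 360 min. The log2 change was -0.06 (SE 0.769) at 60 min against 0 min and -1.31 (SE 0.970) at 360 min against 0 min, the latter on 3 and 1 counts at 360 min. The ratio of RPF to mRNA was 1.24 at 0 min and 2.74 at 60 min. Within libraries of one number it ran from 0.131 to 14.7, so no order of times can be read from it.

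SESN2 and DDIT4 are stress-induced brakes on the growth kinase mTORC1. SESN2 (ENST00000253063; gene at chr1:28259518-28282491), sestrin 2, acts as a leucine sensor. Its RPF level was 30.4 and 88.6 CPM at 0 min, 111 and 88.0 CPM at 60 min, and 18.2 and 99.1 CPM at 360 min. As for CHAC1, replicate 1 was low at 0 and 360 min and replicate 2 was level throughout: the ratio of 60 min to 0 min was 3.66 (95% counting interval 2.45 to 5.60) between libraries numbered 1 and 0.994 (0.700 to 1.40) between libraries numbered 2. The fitted log2 change over all libraries was 0.76 (SE 0.572), and 0.18 without RPF 0 min replicate 1. The mRNA level was 64.2 and 62.6 CPM at 0 min, 78.5 and 74.9 CPM at 60 min, and 72.9 and 19.5 CPM at 360 min. The 60 min libraries lay above the other 4 by a small step (log2 change 0.27, SE 0.519), and 360 min replicate 2 alone was far off. From 60 to 360 min SESN2 mRNA had a log2 change of -0.79 (SE 0.551), and -0.06 without that library.

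DDIT4 (REDD1; ENST00000307365; gene at chr10:72273924-72276036) had the opposite RPF profile to the rest. The level was 83.0 and 139.5 CPM at 0 min, 60.6 and 95.2 CPM at 60 min, and 74.1 and 271 CPM at 360 min. The groups overlapped in each comparison, and the high mean at 360 min came from replicate 2, the RPF library least like the others. The log2 change in RPF was -0.52 (SE 0.508) at 60 min against 0 min. At 360 min against 60 min it was 1.14 (SE 0.513, 95% interval 0.06 to 2.22), with an edgeR adjusted p-value of 0.619 (0.0400 unadjusted). Without RPF 360 min replicate 2 it was -0.07.

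DDIT4 mRNA was 87.4 and 61.2 CPM at 0 min, 122 and 88.8 CPM at 60 min, and 163 and 37.3 CPM at 360 min. Both 60 min libraries lay above the 0 min libraries, and the 360 min libraries were the highest and the lowest of all 6. Its change in TE was -1.02 (SE 0.905, 95% interval -2.95 to 0.92) at 60 min against 0 min, the lowest of the 8, and 1.18 (SE 0.915) at 360 min against 60 min, with an edgeR adjusted p-value of 0.948.

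**Figure D2:**
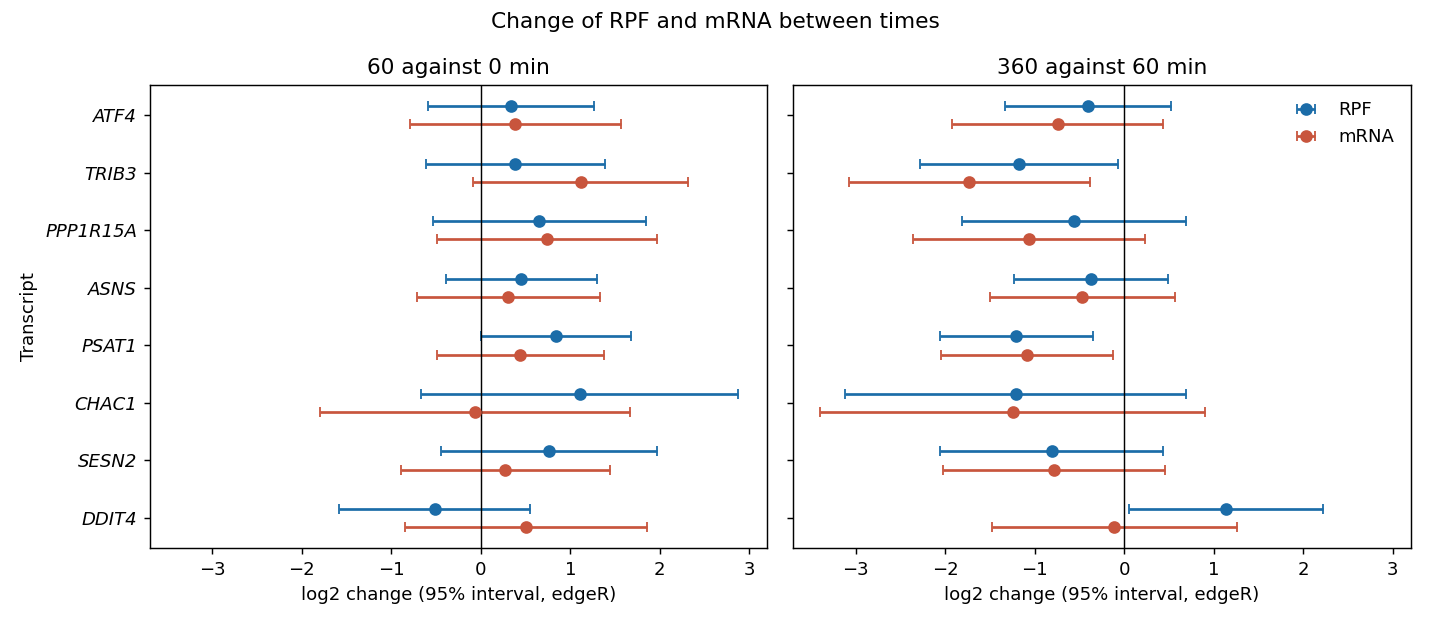
Log2 change with its 95% interval from edgeR for each transcript, RPF in blue and mRNA in red, for 60 against 0 min (left) and 360 against 60 min (right). Most points lie right of 0 on the left and left of 0 on the right, and the intervals that leave out 0 are those of PSAT1 RPF on the left and, on the right, TRIB3 and PSAT1 in both assays and DDIT4 in RPF.

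At 60 min against 0 min the log2 change was above 0 for 7 of 8 in RPF, where 49% of the 9653 transcripts tested were, and for 7 of 8 in mRNA, where 48.3% of 9693 were. The median change of the 8 was 0.55 in RPF and 0.41 in mRNA, beside -0.01 and -0.02 for all transcripts. Both 60 min libraries lay above both 0 min libraries for 3 of 8 in RPF (PPP1R15A, PSAT1 and CHAC1) and for 4 of 8 in mRNA (TRIB3, PSAT1, SESN2 and DDIT4), against 15.2% and 13.4% of all transcripts. At an unadjusted p-value under 0.05 there was 1 of 8 in RPF, PSAT1, and 0 of 8 in mRNA, against 2.31% and 1.37% of all in either direction.

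At 360 min against 60 min the change was below 0 for 7 of 8 in RPF, all but DDIT4, and for 8 of 8 in mRNA. Among all transcripts 46.9% and 52.3% were below 0. The lowest of the 6 mRNA libraries was 360 min replicate 2 for 7 of the 8, and this is also the mRNA library least like the others. The share of all transcripts that were lowest in that library was not counted. Without mRNA 360 min replicate 2 the mRNA change was below 0 for 7 of 8, with a median of -0.35. In that fit 48.4% of all transcripts tested were above 0, with a median of -0.03. The medians were -0.68 in RPF and -0.93 in mRNA, beside 0.04 and -0.04 for all transcripts. Without overlap of the libraries, 3 of 8 were lower in RPF (TRIB3, PSAT1 and CHAC1) and 4 of 8 in mRNA (ATF4, TRIB3, PSAT1 and SESN2), against 18% and 19.6% of all. With an unadjusted p-value under 0.05 there were 3 of 8 in RPF (TRIB3 and PSAT1 lower, DDIT4 higher) and 2 of 8 in mRNA (TRIB3 and PSAT1, both lower), where 7.8% and 10.3% of all transcripts had one. These comparisons share the 60 min libraries, so a high value there enters both.

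Between 0 and 360 min the directions were mixed in RPF and mostly negative in mRNA. The change was below 0 for 5 of 8 in RPF and 7 of 8 in mRNA (47.9% and 51.8% of all transcripts), with medians of -0.06 and -0.44. Both 360 min libraries lay below both 0 min libraries for TRIB3 and PSAT1 in RPF and for PSAT1 and CHAC1 in mRNA, 2 of 8 in each, against 13.8% and 19.1% of all. No member had an unadjusted p-value under 0.05, which 3.91% of all transcripts had in RPF and 8.92% in mRNA. In mRNA the 1 of 8 above 0 became 6 without 360 min replicate 2, 3 without 0 min replicate 1 and 0 without 360 min replicate 1. In RPF the 3 of 8 above 0 became 1 without 0 min replicate 1 or 360 min replicate 2. They became 5 without 360 min replicate 1 and 6 without 0 min replicate 2. Of all transcripts tested, 46.9% to 50.8% were above 0 in these mRNA fits and 47.8% to 55.3% in these RPF fits.

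Over all 3 times, PSAT1 and CHAC1 had both 60 min libraries above the other 4 in RPF, and TRIB3, PSAT1 and SESN2 had them so in mRNA. Of all transcripts 7.55% and 5.47% did. Both 360 min libraries were below the other 4 for TRIB3 and PSAT1 in RPF (7.99% of all) and for PSAT1 in mRNA (11.7% of all).

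**Figure D3:**
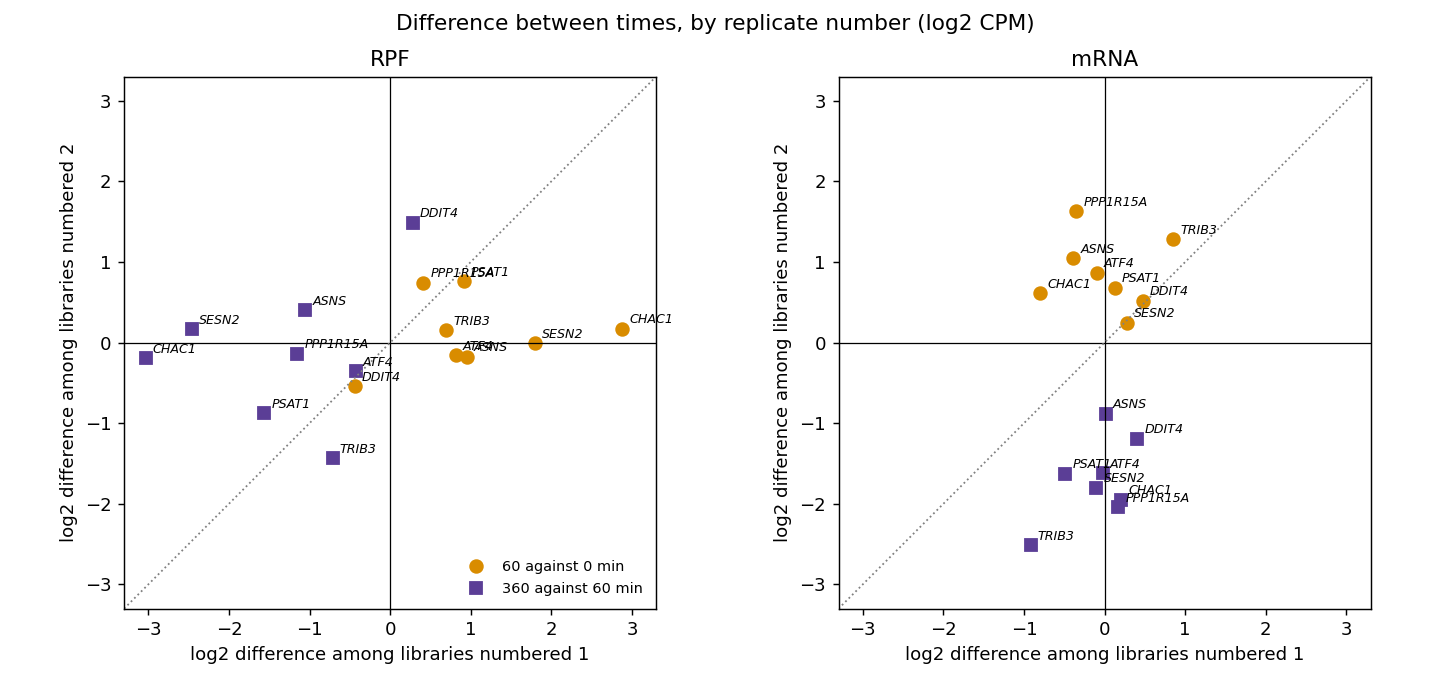
Difference in log2 CPM between times among libraries numbered 1 (horizontal) and libraries numbered 2 (vertical), for RPF and mRNA, with circles for 60 against 0 min, squares for 360 against 60 min and a dotted line of equality. RPF points spread along the horizontal axis (median 0.86 against 0.07 for 60 against 0 min) and mRNA points along the vertical one (0.02 against 0.77).

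The 2 replicates did not carry these differences equally, and the replicate that carried them was not the same in both assays. In RPF the median difference of the 8 at 60 min against 0 min was 0.86 on the log2 scale between libraries numbered 1, with 7 of 8 above 0, and 0.07 between libraries numbered 2, with 4 of 8 above 0. In mRNA it was 0.02 between libraries numbered 1, with 4 of 8 above 0, and 0.77 between libraries numbered 2, with 8 of 8 above 0. From 60 to 360 min the medians were -1.10 and -0.17 in RPF, and 0.00 and -1.71 in mRNA, again for numbers 1 and 2. Over all transcripts tested each of these 8 medians lay between -0.07 and 0.02. At 60 min against 0 min 48% of them were above 0 between RPF libraries numbered 1 and 50.4% between those numbered 2. In mRNA 50.9% were above 0 in each number. PSAT1 and TRIB3 were the members with the same sign in both numbers of both assays at both steps. The labels do not say that a number marks a common culture or day, and the difference between numbers was not tested.

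**Figure D4:**
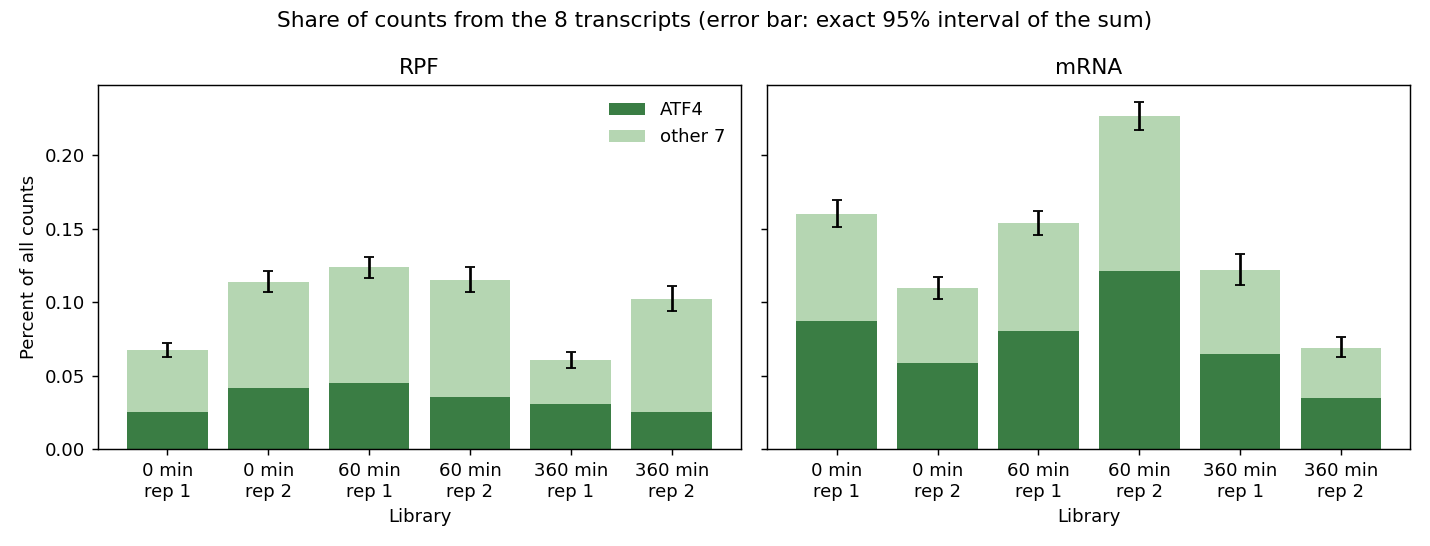
Share of all counts of each library that came from the 8 transcripts, in percent, with ATF4 in dark and the other 7 in light green and an exact 95% interval on the sum. In RPF replicate 1 the share is 0.0674%, 0.124% and 0.0607% at 0, 60 and 360 min, and in mRNA replicate 2 it is 0.109%, 0.226% and 0.0691%.

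The summed share of counts shows the same split. In RPF the 8 transcripts took 0.0674% of the counts at 0 min (exact 95% interval 0.0628 to 0.0723), 0.124% at 60 min (0.117 to 0.131) and 0.0607% at 360 min (0.0555 to 0.0662) in replicate 1. In replicate 2 they took 0.114%, 0.115% and 0.102%, with intervals that overlap. In mRNA it was replicate 2 that stood high at 60 min: the shares were 0.160%, 0.154% and 0.122% in replicate 1, and 0.109%, 0.226% and 0.0691% in replicate 2. All counting intervals leave out other error, because PCR copies of one molecule can be counted more than once.

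**Figure D5:**
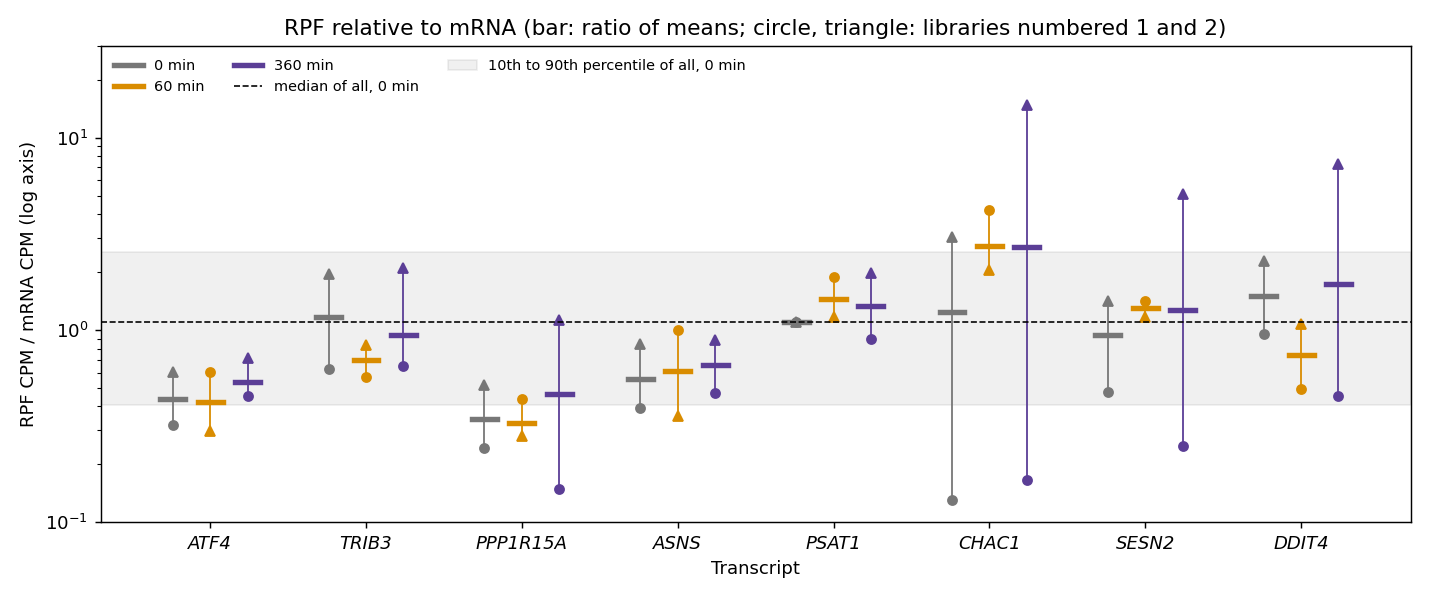
RPF CPM divided by mRNA CPM (log axis) for each transcript at 0, 60 and 360 min: bars are ratios of the group means, circles and triangles are libraries numbered 1 and 2, and the dashed line and grey band are the median and the 10th to 90th percentile of 8632 transcripts at 0 min. ATF4 and PPP1R15A bars lie below 0.54 at every time, and the symbols of CHAC1 at 0 min and of CHAC1, SESN2 and DDIT4 at 360 min are widest apart.

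Translational efficiency gave no direction for the group. The log2 change in TE was above 0 for 4 of 8 at 60 min against 0 min (51.2% of 8632 transcripts), for 7 of 8 at 360 min against 0 min (50.6%) and for 6 of 8 at 360 min against 60 min (51.4%), with medians of 0.06, 0.23 and 0.15. No member had an unadjusted p-value under 0.05 in edgeR's interaction test in any of the 3, where 1.75%, 5.66% and 4.69% of all transcripts had one. The median SE of a member was between 0.765 and 0.873, so for most members the interval holds a log2 change of 1 in either direction. Leaving out 1 library moved the 7 of 8 at 360 min against 0 min to 1 (without RPF 360 min replicate 2), 2 (without mRNA 360 min replicate 2) or 3 (without mRNA 0 min replicate 1). It moved the 6 of 8 at 360 min against 60 min to 1 without mRNA 360 min replicate 2, and to 3 without RPF 360 min replicate 2 or mRNA 60 min replicate 2. The 4 of 8 at 60 min against 0 min ran from 3 to 6, and the median of the 8 from -0.30 to 0.43. The count was 6 without RPF 0 min replicate 2, mRNA 0 min replicate 2 or mRNA 60 min replicate 2. In the fits named here, 47.2% to 54.3% of all transcripts tested had a TE change above 0. With library totals alone as the scaling, the median of all transcripts moved to -0.28 in mRNA and 0.19 in TE at 360 min against 60 min. Relative to that median, 8 of 8 members were still lower in mRNA, and 7 of 8 were higher in TE in place of 5 of 8.

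Likeness to ATF4 was measured as the root-mean-square difference of log2 CPM, each transcript centred on its own mean, over the 6 libraries of an assay. In mRNA all 7 other members were nearer to ATF4 than the median transcript (0.691). PSAT1 was nearest at 0.247, with 1.22% of 9692 transcripts nearer, followed by PPP1R15A at 0.248 and CHAC1 at 0.268. The CHAC1 value rests on 1 to 16 mRNA counts per library, where the prior count of 2 narrows differences. Between 360 and 60 min replicate 2, its CPM ratio was 0.120 but its log2 difference as used here was -1.95. For ATF4 these were 0.324 and -1.62. TRIB3 and DDIT4 were the farthest, with 13.2% and 14.3% of transcripts nearer. In RPF only ASNS (0.326, with 15.0% nearer), TRIB3 (0.448) and PSAT1 (0.481) were nearer than the median of 0.493, and CHAC1 was among the farthest of all transcripts at 1.31, with 99.7% nearer. The 2 nearest transcripts overall were ENST00000537981 and ENST00000511912 in RPF (0.0846 and 0.0927) and ENST00000366988 and ENST00000369103 in mRNA (0.0674 and 0.0880), which carry no symbol here. The measure follows all differences between libraries, those between replicates included.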

How the data were processed

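RPF and mRNA were sequenced in 12 HEK293T libraries, 2 per assay and time. The deposited tables hold raw counts, 1 table for each library with Ensembl transcripts in rows, per the file headers; a transcript missing from a table was given 0. The submitters' processing notes name cutadapt 2.8, Bowtie 1.2.3 and STAR 2.7.10a. The genome build, annotation, counting program, counted region and use of strand are not given in the sources used here, so reads shared with overlapping or near-identical transcripts are uncertain.

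Symbols came from the list of members, and the members and lists were chosen with earlier results of these data known. Every member found was named, whatever its result. The tests used edgeR 4.0.16 under R 4.3.3: filterByExpr, TMM scaling and the quasi-likelihood test with time as the factor over the 6 libraries of an assay, and for TE the interaction of assay and time over all 12 libraries, with TMM within each assay. Benjamini-Hochberg adjustment ran over all transcripts tested (9653 in RPF, 9693 in mRNA, 8632 in TE), with 0.05 as the threshold. CPM used the counts of tested transcripts times the TMM factor. Each SE was obtained from the size of the change and its F statistic. Differences by replicate number and likeness used log2 CPM with a prior count of 2. Replicate pairs differed beyond sampling noise (chi-square per degree of freedom 8.61 to 16.7), so none was counted as a duplicate. Promoters and gene positions are from RefSeq, GRCh38.p14. Alternatives were RLE and library-total scaling, other filters, the 2 compared times alone, DESeq2 1.42.0, a block for the replicate number, and each library left out in turn.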

Additional observations from a re-analysis of the deposited data

How the results depend on the processing

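With the threshold at 0.05 the 9 comparisons called 0 members, and so did each of the 115 alternative fits, DESeq2's among them. The smallest adjusted p-value of a member under any alternative was 0.0658, for DDIT4 in RPF at 360 min against 60 min without RPF 360 min replicate 1. Not every alternative could call every member. With at least 10 counts in every library, 5 members were tested in RPF and TE and 6 in mRNA, TRIB3 and CHAC1 being left out. The mRNA fits of 360 min with 1 other time alone tested 7. DESeq2 gave no adjusted p-value in mRNA to TRIB3 and CHAC1 at 360 min against 60 min. At 360 min against 0 min it gave none to these, PPP1R15A and SESN2. Of 508 changes recomputed under the alternatives that keep all replicates, 12 had another sign, each of them smaller than its SE in the main fit. Leaving out 1 library of a compared time, whose lone partner is then assumed to vary like the other groups, changed the sign of 83 of 384. Of these, 3 were larger than their SE: ASNS in RPF at 60 min against 0 min, and DDIT4 in RPF at 360 min against 0 min and against 60 min, with -0.04 (without RPF 60 min replicate 1), -0.59 and -0.07 (both without RPF 360 min replicate 2).

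With the replicate number as a block, 0 members passed in each comparison, and the smallest adjusted p-value of a member was 0.168, for PSAT1 in RPF at 360 min against 60 min. Over all transcripts edgeR called 0 in each comparison as reported. At 60 against 0, 360 against 0 and 360 against 60 min in turn, RPF calls were 1, 2 and 7 with the block, 1, 1 and 2 with DESeq2 and 1, 0 and 33 with no filter. In mRNA they were 0, 0 and 0 with the block, 0, 8 and 66 with DESeq2 and 17, 89 and 113 with no filter. TE had 2 at 360 against 60 min with DESeq2 and with no filter, and 0 otherwise. Leaving out RPF 360 min replicate 1 gave 75 in RPF at 360 against 60 min, and any other library gave 0 or 1. Deviations of same-numbered RPF libraries correlated at 0.223 to 0.292 across transcripts; in mRNA the values were -0.371, -0.0594 and 0.334. For mRNA at 60 min against 0 min a block with crossed numbers, chosen after seeing the data, gave 0 calls. The numbers alone do not show that libraries are paired. Depth limits CHAC1 most, with as few as 1 count in a library.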
